A study of Mus musculus with 16 samples.

Results

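The genes described are those that make pulmonary surfactant and mark the alveolar type 2 cell, namely Sftpa1, Sftpb, Sftpc, Sftpd, Abca3, Lamp3, Napsa, Slc34a2 and Lpcat1. They were followed in whole lung on 16 arrays. Each gene was represented by the probe set that the platform annotation gives to that symbol alone and that had the highest mean over the 16 arrays. By this rule 8 of the 9 genes were measured, among 12369 genes kept in the series. The exception was Lamp3, a membrane protein of lysosomes and lamellar bodies, whose probe set is annotated to more than 1 gene, and it is not described further. All 8 chosen probe sets lay above the array median on all 16 arrays.

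Total lung RNA came from female BALB/c mice, with 4 arrays in each of 4 groups. The groups were pregnant mice at gestation day 14 given 50 µg of titanium dioxide particles (TiO2) by intranasal insufflation, pregnant mice of the same gestation day given PBS, non-pregnant mice given 50 µg of TiO2 and non-pregnant mice given PBS. All were under light halothane when dosed once, and lungs were taken 19 h later, so no group was left undosed. The study asked whether pregnancy alters the lung's response to particles regarded as inert. The particles had been baked to remove endotoxin. Labels do not say whether each array came from 1 mouse, so p-values measure the spread between these samples. Labels of non-pregnant PBS replicate 2 conflict on pregnancy, and the array was kept as non-pregnant since the design names 4 samples for every group. Replicate numbers only name arrays.

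Surfactant is a film of lipid and protein that lowers surface tension in the alveolus. Alveolar type 2 cells make it, store it in lamellar bodies, secrete it and take much of it up again, and alveolar macrophages degrade the rest. Surfactant proteins B and C are small hydrophobic proteins that help lipid spread at the air surface, whereas surfactant proteins A and D are collectins that bind microbes and particles. In whole lung RNA, fewer cells of a type and less RNA per cell cannot be told apart.

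The RefSeq promoter table (GRCm38.p6) held 6 of the 9 genes. The 250 bases upstream of the start are printed for 4 of them, Sftpa1 and Sftpb as secreted surfactant proteins and Abca3 and Slc34a2 as membrane transporters of the same cell. Capitals mark CAAG on either strand (CTTG is its reverse complement), the core letters of the sites bound by NKX2-1, the lung epithelial transcription factor, and TATAA on the strand of the gene. No 2 marked matches overlapped.
Sftpa1 promoter, chr14:41131538-41131787, plus strand: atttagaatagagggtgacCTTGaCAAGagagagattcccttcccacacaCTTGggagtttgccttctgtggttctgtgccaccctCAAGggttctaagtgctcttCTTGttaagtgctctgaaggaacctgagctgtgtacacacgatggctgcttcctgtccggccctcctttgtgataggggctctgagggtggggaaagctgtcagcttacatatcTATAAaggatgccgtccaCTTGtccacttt
Sftpb promoter, chr6:72304360-72304609, plus strand: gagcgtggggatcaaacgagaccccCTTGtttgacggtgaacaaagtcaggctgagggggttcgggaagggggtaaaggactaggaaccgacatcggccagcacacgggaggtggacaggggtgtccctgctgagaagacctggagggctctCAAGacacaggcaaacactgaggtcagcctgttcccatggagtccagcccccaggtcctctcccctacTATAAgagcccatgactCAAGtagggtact
Abca3 promoter, chr17:24351773-24352022, plus strand: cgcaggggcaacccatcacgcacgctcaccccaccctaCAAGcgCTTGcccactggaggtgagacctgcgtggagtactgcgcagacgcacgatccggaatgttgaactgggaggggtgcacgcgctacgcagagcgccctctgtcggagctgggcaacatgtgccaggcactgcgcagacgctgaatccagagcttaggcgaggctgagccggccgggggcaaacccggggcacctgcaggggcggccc
Slc34a2 promoter, chr5:53049103-53049352, plus strand: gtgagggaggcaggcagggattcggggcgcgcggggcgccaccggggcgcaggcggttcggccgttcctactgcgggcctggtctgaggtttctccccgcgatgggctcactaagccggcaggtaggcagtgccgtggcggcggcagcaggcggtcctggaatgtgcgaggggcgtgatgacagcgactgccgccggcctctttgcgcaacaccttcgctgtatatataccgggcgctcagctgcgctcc
The Sftpa1 window held 6 CAAG matches and 1 TATAA, with 3 CG pairs and 50.0% G and C. In the Sftpb window there were 3 CAAG matches and 1 TATAA, with 7 CG pairs. The Abca3 window held 2 CAAG matches and no TATAA, with 21 CG pairs, and the Slc34a2 window held neither motif and 28 CG pairs. Of 32851 mouse promoter windows of the same length, 86.62% held at least 1 CAAG, 37.04% at least 3 and 16.0% a TATAA, and their median was 6 CG pairs. A match is only a description of letters.

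None of the 8 genes was called in any comparison. With limma's moderated test on log2 normalized signal, called at a Benjamini-Hochberg adjusted p under 0.05 over all 12369 genes, 0 of 56 gene-by-comparison tests passed. Among these 56, 1 had an unadjusted p under 0.05, where 12.2% of the tests of all genes in the same 7 comparisons did. Group means of a gene differed by at most 0.21 on the log2 scale (Lpcat1), and the other 7 genes kept their 4 group means within 0.15.

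The collectins were not called in any comparison. Sftpa1, which encodes surfactant protein A, averaged 13.12 ± 0.01 in pregnant TiO2 lungs, 13.10 ± 0.08 in pregnant PBS lungs, 13.11 ± 0.05 in non-pregnant TiO2 lungs and 13.04 ± 0.05 in non-pregnant PBS lungs (log2 normalized signal, SD, n = 4 each). The highest and the lowest of these means were 0.08 apart, beside a pooled within-group SD of 0.05. Sftpd, which encodes surfactant protein D, read 12.78, 12.85, 12.79 and 12.91 in pregnant TiO2 lungs and 12.69, 12.69, 12.81 and 12.86 in pregnant PBS lungs. It read 12.77, 12.71, 12.69 and 12.77 in non-pregnant TiO2 lungs and 12.74, 12.85, 12.57 and 12.69 in non-pregnant PBS lungs. The 4 pregnant TiO2 arrays lay just above the 4 non-pregnant TiO2 arrays, and every other pair of groups compared for Sftpd overlapped. That difference was 0.10 ± 0.07 (log2, SE) and was not called (limma adjusted p = 0.465).

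The genes of the hydrophobic proteins gave no call. Sftpc, which encodes surfactant protein C and is the classic marker of the type 2 cell, read 13.22, 13.15, 13.26 and 13.29 in pregnant TiO2 lungs and 13.36, 13.29, 13.22 and 13.24 in pregnant PBS lungs. It read 13.29, 13.26, 13.24 and 13.24 in non-pregnant TiO2 lungs and 13.29, 13.49, 13.17 and 13.19 in non-pregnant PBS lungs. All 4 groups overlapped, and the highest value came from non-pregnant PBS replicate 2.

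Sftpb, which encodes surfactant protein B, read 12.68, 12.83, 13.03 and 12.85 in pregnant TiO2 lungs and 13.03, 13.01, 13.02 and 12.91 in pregnant PBS lungs. It read 13.04, 13.04, 12.99 and 12.88 in non-pregnant TiO2 lungs and 13.02, 12.88, 12.72 and 12.85 in non-pregnant PBS lungs. In pregnant mice 3 TiO2 arrays were below all PBS arrays and 1 was among them, and the non-pregnant groups overlapped with the TiO2 mean the higher. The TiO2 difference was -0.15 ± 0.09 in pregnant mice and 0.12 ± 0.09 in non-pregnant mice (log2, SE). The difference between these responses was -0.27 ± 0.12 and was not called (limma adjusted p = 0.439, unadjusted 0.0409). It was the single one of the 56 tests under 0.05 before adjustment, a level that 10.9% of all genes reached in the same comparison. Over 28 other settings it ran from -0.38 with values as deposited to -0.10 with arrays scaled to a common trimmed mean, and none called it. It was negative in all 28 and had an unadjusted p under 0.05 (limma) in 12 of them. The settings share arrays, so they are not independent.

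**Figure D1:**
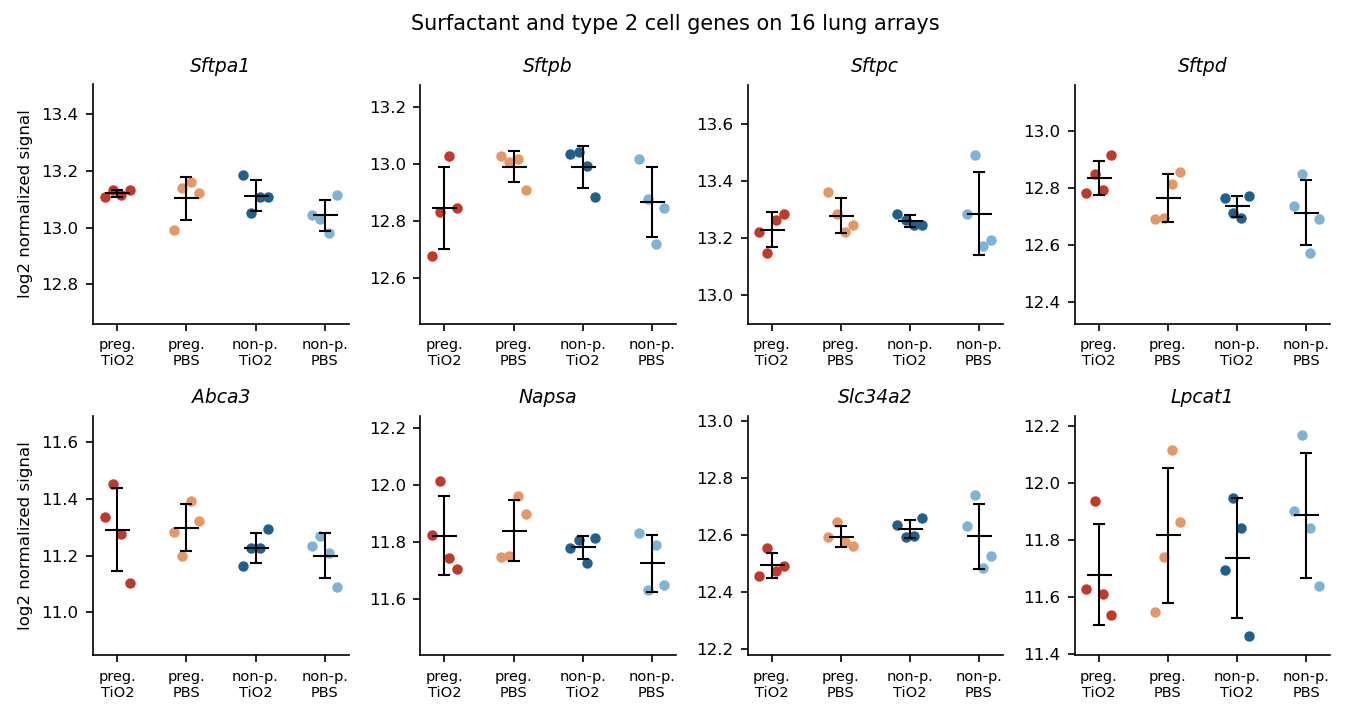
Log2 normalized signal (vertical axis, of the same span for every gene) of the 8 measured genes in the 4 groups; points are arrays and bars the mean ± SD of 4. Means of a gene lie within 0.21 of each other, and the Slc34a2 mean is 12.49 in pregnant TiO2 lungs against 12.59 to 12.62 in the other groups.

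Among genes of lamellar bodies and surfactant lipid, Abca3, the transporter that loads phospholipid into lamellar bodies, averaged 11.29 ± 0.15 in pregnant TiO2, 11.30 ± 0.08 in pregnant PBS, 11.23 ± 0.05 in non-pregnant TiO2 and 11.20 ± 0.08 in non-pregnant PBS lungs (log2, SD, n = 4 each). The pregnant means were the higher under both exposures, by 0.08 ± 0.06 averaged over exposures (SE, adjusted p = 0.467, limma). Napsa, an aspartic protease that trims the precursor of surfactant protein B, averaged 11.82 ± 0.14 in pregnant TiO2, 11.84 ± 0.11 in pregnant PBS, 11.78 ± 0.04 in non-pregnant TiO2 and 11.72 ± 0.10 in non-pregnant PBS lungs. It had the same order of pregnant over non-pregnant means, and its difference of 0.08 ± 0.06 was not called either.

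Lpcat1, the acyltransferase that makes the saturated phosphatidylcholine of surfactant, was the most variable of the 8, with a pooled within-group SD of 0.21 against 0.05 to 0.11 for the others. It read 11.63, 11.94, 11.61 and 11.54 in pregnant TiO2 lungs and 11.55, 11.74, 12.12 and 11.86 in pregnant PBS lungs. It read 11.70, 11.95, 11.84 and 11.46 in non-pregnant TiO2 lungs and 11.90, 12.17, 11.84 and 11.64 in non-pregnant PBS lungs. The TiO2 mean was the lower in both states, by a log2 difference of -0.14 ± 0.14 in pregnant and -0.15 ± 0.14 in non-pregnant mice (SE), with all groups overlapping.

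Slc34a2, the sodium-phosphate cotransporter of the type 2 cell's apical membrane, read 12.46, 12.56, 12.47 and 12.49 in pregnant TiO2 lungs and 12.59, 12.65, 12.58 and 12.56 in pregnant PBS lungs. It read 12.64, 12.59, 12.60 and 12.66 in non-pregnant TiO2 lungs and 12.63, 12.74, 12.48 and 12.53 in non-pregnant PBS lungs. The pregnant TiO2 arrays lay below all arrays of pregnant PBS, narrowly, and of non-pregnant TiO2, and they overlapped those of non-pregnant PBS. Neither difference was called, at -0.10 ± 0.07 against pregnant PBS (limma adjusted p = 0.827) and -0.13 ± 0.07 against non-pregnant TiO2 (adjusted p = 0.305).

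For TiO2 in pregnant mice, 0 of 8 genes were called, and 0% of all genes were. The widest 95% limits over the 8 genes were folds of 0.736 and 1.17. By non-overlap, 1 of 8 (Slc34a2, lower) separated the groups, where 4.22% of all genes did. For TiO2 in non-pregnant mice, 0 of 8 were called, again beside 0% of all genes, with limits of 0.730 and 1.24, and 0 of 8 separated the groups where 5.2% of all genes did. At an unadjusted p under 0.05, 0 of 8 passed in either state, where 6.43% of all genes did in pregnant and 9.89% in non-pregnant mice. The median over the 8 was -0.03 in pregnant mice, beside -0.00 over all genes, and 0.03 in non-pregnant mice, beside -0.02. Averaged over both states, TiO2 again gave 0 of 8 and 0% of all genes, with limits of 0.780 and 1.12, and 0 of 8 had an unadjusted p under 0.05, where 6.2% of all genes did. For the difference between the 2 TiO2 responses, 0 of 8 and 0% of all genes were called, and the limits were 0.695 and 1.36.

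Pregnancy gave calls elsewhere in the lung but none here. After PBS 0 of 8 were called, where 1.04% of all genes were, with limits of 0.772 and 1.24, and 0 of 8 separated the groups where 5.76% of all genes did. After TiO2 0 of 8 were called, where 1.88% of all genes were, with limits of 0.778 and 1.19, and 2 of 8 separated the groups (Sftpd higher, Slc34a2 lower) where 15.7% of all genes did. Averaged over exposures 0 of 8 were called, where 4.42% of all genes were, with the limits at 0.824 and 1.15. At an unadjusted p under 0.05, 0 of 8 passed in any of these, where 11.9% of all genes did after PBS, 20.4% after TiO2 and 19.6% over both. With at most 4.42% of all genes called, 0 of 8 called does not set these genes apart from the rest. Whether 0 of 8 at the unadjusted level does so was not tested. The comparisons share groups, so they are not independent of one another.

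**Figure D2:**
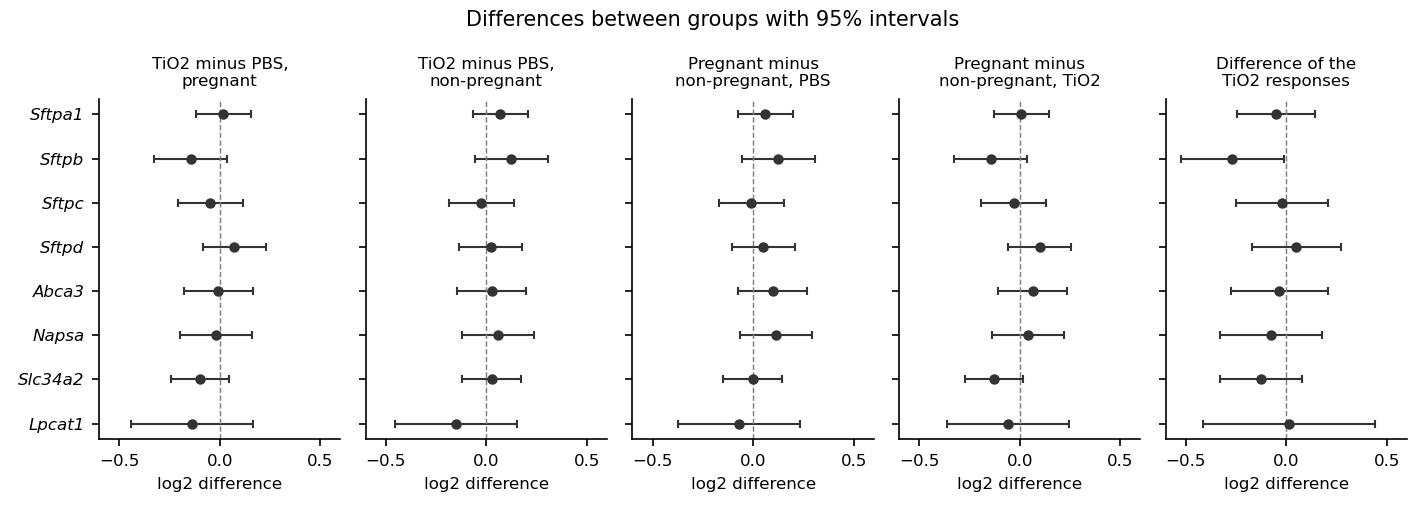
Log2 differences (points) with 95% intervals (bars) for the 8 genes in the comparisons between groups and in the difference of the TiO2 responses, from 1 fit of 16 arrays. Every interval includes 0 except that of Sftpb for the difference of the responses (-0.27).

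Most of these genes lie at the top of the array's range, where signals were compressed. Ranked by mean signal among the 12369 genes, Sftpc was at 6, Sftpa1 at 15, Sftpb at 29, Sftpd at 42, Slc34a2 at 67, Napsa at 282, Lpcat1 at 290 and Abca3 at 589. A rank is a position in signal, not an amount of RNA, since probe sets differ in response. The deposited arrays differed in overall brightness by 1.92 times (trimmed means of 137 to 263), but their highest signals differed by only 1.29 times. If a signal followed brightness in proportion, its log2 value would have a slope of 1 on the log2 trimmed mean.

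The slope was 0.10 for Sftpc, 0.38 for Sftpd, 0.43 for Sftpa1, 0.47 for Slc34a2 and 0.50 for Sftpb. It was 0.65 for Lpcat1, 0.95 for Abca3 and 0.96 for Napsa. The 5 brightest genes thus followed brightness least, and only the 2 last were near proportion. Over all genes the median slope was 0.44 at ranks 1 to 50, 0.69 at ranks 51 to 200, 0.86 at ranks 201 to 500, 0.94 at ranks 501 to 1000 and 1.01 at ranks 1001 to 2000. Sftpa1, Sftpb and Sftpd lay within the quartiles of their class (0.35 to 0.52), as did Abca3 and Napsa of theirs. Below the lower quartile of their class lay Sftpc (0.35), Slc34a2 (0.56) and Lpcat1 (0.74).

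Deposited signals of Sftpc ran from 8644 to 11773, 1.36 times, while those of Napsa ran from 2154 to 4851, 2.25 times. Within-group spread fell with brightness too, with a median SD of 0.07 at ranks 1 to 50 and 0.14 at ranks 1001 to 2000. Of the 50 brightest genes 1 (2%) was called for pregnancy averaged over exposures, beside 4.42% of all genes. The share was 2.67% at ranks 51 to 200, 4% at ranks 201 to 500, 5.2% at ranks 501 to 1000 and 3.7% to 5.06% in the dimmer classes. Whether these shares differ was not tested. On such signals a fold is a fold in signal, and the intervals above hold for signal. How much a change in RNA would be reduced was not tested.

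**Figure D3:**
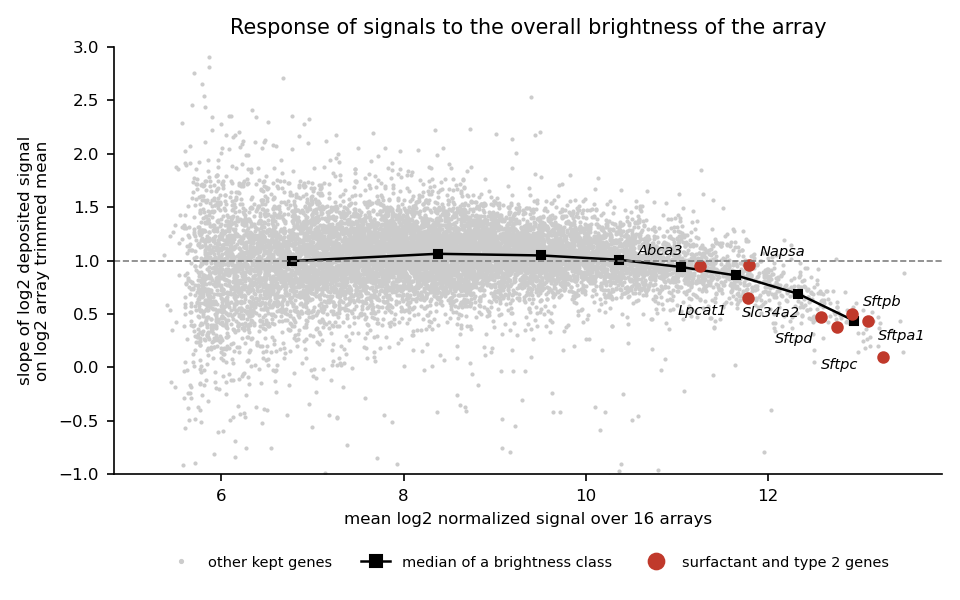
Slope of each gene's log2 deposited signal on the log2 trimmed mean of the array (vertical axis) against its mean log2 normalized signal (horizontal axis), for 12369 genes, of which 35 lie outside the axis; squares are medians of brightness classes and the dashed line is a slope of 1. The median is near 1 over most of the range and drops to 0.44 for the 50 brightest, where Sftpb, Sftpa1, Sftpd and Sftpc lie.

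The dimmest array stood at an extreme for 4 of the 8 genes after normalization. Non-pregnant PBS replicate 2, which also has the conflicting labels, had the lowest trimmed mean, 137. It had the highest value of 16 for Sftpc, Slc34a2 and Lpcat1 (13.49, 12.74 and 12.17) and the lowest for Napsa (11.63). Counting it as pregnant PBS called none of the 8 genes in any comparison.

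**Figure D4:**
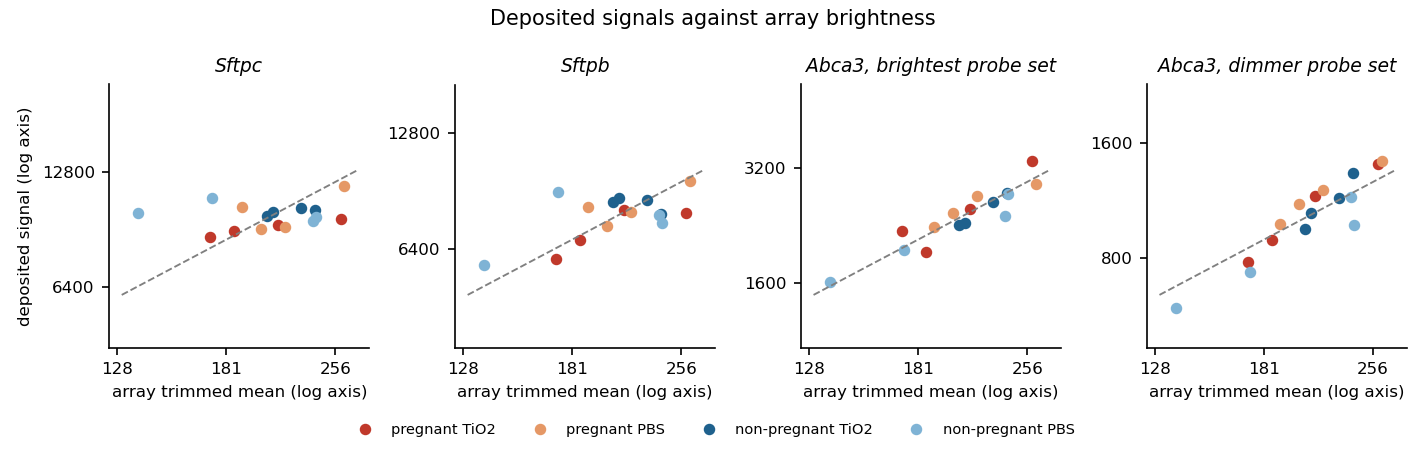
Deposited signal (vertical log axis) against the trimmed mean of the array (horizontal log axis) for Sftpc, Sftpb and the 2 brighter probe sets of Abca3; points are arrays coloured by group, and the dashed line is proportion. Sftpc is nearly flat (slope 0.10), while the brightest Abca3 probe set follows the line (0.95).

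Dimmer probe sets of the same genes gave a second reading. The annotation gives the 8 genes 17 probe sets, of which 13 were kept and 4, of Sftpc, Abca3, Napsa and Lpcat1, were at background. A second probe set of Sftpa1 had a slope of 0.58 and, fitted with all 23995 kept probe sets, differences within ±0.08 in every comparison. For Lpcat1 the TiO2 difference in pregnant mice was -0.14, -0.02, 0.08 and 0.20 over its 4 kept probe sets. The SEs were 0.15, 0.12, 0.14 and 0.31, so the sign was not settled. The last of these probe sets was weak, with deposited signals of 21.6 to 156, and the brighter ones also differed in sign. The dimmer kept probe set of Abca3 (slope 1.30) averaged 10.07 in pregnant TiO2, 10.17 in pregnant PBS, 10.07 in non-pregnant TiO2 and 9.89 in non-pregnant PBS lungs. Its pregnant minus non-pregnant difference after PBS was 0.28 ± 0.09 (log2, SE), against 0.10 ± 0.08 for the brightest Abca3 probe set, both without a call (adjusted p = 0.215 and 0.742, limma over probe sets). Of the 13 kept probe sets 0 were called in any comparison, where the share of all probe sets called was 0.563% for pregnancy after PBS, 0.767% after TiO2, 2.81% over both and 0% in the other comparisons.

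Across arrays the 8 genes moved together little. Pearson's r over the 16 arrays ran from -0.57 (Sftpc with Napsa) to 0.78 (Abca3 with Napsa), with a median of 0.14 over 28 pairs. It was negative in 9 pairs and above 0.5 in 2, the second being Sftpc with Slc34a2 at 0.64. These are descriptions. With the log2 trimmed mean of the array, the normalized values had an r of -0.74 for Sftpc, 0.34 for Napsa, 0.03 for Abca3 and -0.22 for Slc34a2. The part of array brightness in the pairs was not tested. The mean of the 8 standardized values was lowest in non-pregnant PBS replicates 3 (-1.05) and 4 (-0.80) and highest in pregnant PBS replicate 3 (0.84). Those 2 low arrays also carried thymus transcripts, with a mean of 4 marker genes at 8.67 and 8.87 against 6.15 to 6.99 on the other 14 arrays. Without them and pregnant TiO2 replicate 2, the third array of unlike tissue content, 0 of the 56 tests of the 8 genes were called, 2 had an unadjusted p under 0.05 and 8 differences had the opposite sign. The Sftpb difference between the TiO2 responses was then -0.19 ± 0.15 (SE, unadjusted p = 0.216, adjusted p = 0.668, limma).

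The 6 genes most like that mean over the 16 arrays were Muc1 (r = 0.86), Agap1 (0.85), Nacc2 (0.83), Tmem38b (0.81), Liph (0.76) and Elf5 (0.76). Muc1 encodes an epithelial surface mucin and Elf5 an epithelial transcription factor. Without the 2 low arrays, their r ran between 0.54 (Liph) and 0.80 (Nacc2), and none of the 6 was called in any comparison.

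Genes that supply surfactant lipid did not pass the test either. Of 26 listed genes of fatty acid, choline and sterol handling, 23 were measured and 0 were called in any of the 7 comparisons (limma), while 35 of their 161 tests (21.7%) had an unadjusted p under 0.05, beside the 12.2% over all genes. After TiO2 in non-pregnant mice 16 of 23 were lower, with a median of -0.12 beside -0.02 over all genes. Scd1, a fatty acid desaturase, read 11.94, 12.51, 12.13 and 12.11 in non-pregnant TiO2 lungs and 13.02, 12.73, 12.94 and 12.77 in non-pregnant PBS lungs. Those groups did not overlap, and the difference was -0.69 ± 0.13 (SE, unadjusted p = 6.64e-05), but the adjusted p was 0.146 (limma). Fasn, the fatty acid synthase, had a difference of -0.72 ± 0.21 in the same comparison (adjusted p = 0.306). In pregnant mice Scd1 had 12.44 ± 0.18 after TiO2 and 12.50 ± 0.18 after PBS (SD, n = 4 each).

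Fat tissue also uses both enzymes. The mean of 7 fat markers ranged over 7.90 to 9.46 in non-pregnant TiO2 lungs and over 9.29 to 10.38 in non-pregnant PBS lungs. In pregnant mice it ranged over 8.24 to 10.26 after TiO2 and over 9.12 to 10.51 after PBS. The part of fat tissue in the Scd1 and Fasn values was not tested.

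Of 17 listed genes of surfactant processing, secretion and clearance, 14 were measured, and the called ones were both chains of the receptor for granulocyte-macrophage colony-stimulating factor, through which alveolar macrophages are kept able to clear surfactant. Csf2rb, the shared beta chain, read 8.85, 9.13, 9.04 and 9.16 in pregnant TiO2 lungs and 9.60, 9.63, 9.25 and 9.18 in pregnant PBS lungs. It read 8.45, 8.72, 8.62 and 8.63 in non-pregnant TiO2 lungs and 8.43, 8.38, 8.91 and 8.23 in non-pregnant PBS lungs. Under each exposure all pregnant arrays were above all non-pregnant ones. Csf2rb rose with pregnancy after PBS by 0.93 ± 0.14 (adjusted p = 0.00421) and averaged over exposures by 0.68 ± 0.10 (adjusted p = 0.00105, limma). Mice carry a close copy of this gene, and whether the probe set separates them was not tested. Csf2ra, the alpha chain, rose by 0.35 ± 0.07 averaged over exposures (adjusted p = 0.0130), at 8.51 ± 0.17 and 8.69 ± 0.12 in pregnant TiO2 and PBS lungs against 8.26 ± 0.09 and 8.24 ± 0.17 in non-pregnant TiO2 and PBS lungs (SD, n = 4 each).

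Counting the array with conflicting labels as pregnant PBS ended both Csf2rb calls, at 0.68 after PBS (adjusted p = 0.231) and 0.56 over exposures (adjusted p = 0.0875). The Csf2ra call ended without the 3 arrays of unlike tissue content (0.28, adjusted p = 0.0539) and with values as deposited (0.38, adjusted p = 0.569). Markers of the leukocytes that carry this receptor were higher in pregnant lungs too. The mean of 14 neutrophil markers ranged over 7.97 to 8.45 in pregnant TiO2 and 8.44 to 8.92 in pregnant PBS lungs, against 7.53 to 7.86 in non-pregnant TiO2 and 7.64 to 7.90 in non-pregnant PBS lungs. Over both exposures 11 of 14 were called higher and none lower, where 4.42% of all genes were called. The mean of 11 macrophage markers ranged over 9.08 to 9.22 and 9.12 to 9.38 in pregnant TiO2 and PBS lungs, against 8.56 to 8.85 and 8.81 to 9.05 in non-pregnant TiO2 and PBS lungs, with 3 of 11 called higher. Their part in the receptor values was not tested.

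Of the 98 tests of the processing, secretion and clearance genes 15 (15.3%) had an unadjusted p under 0.05, beside 12.2% over all genes. Within the same list, cathepsin H (Ctsh), a protease that also trims surfactant protein precursors, was at 0.33 ± 0.08 for pregnancy after PBS, short of a call (adjusted p = 0.0614). All 14 listed transcription factors of the type 2 cell were measured and 0 were called in any comparison (limma), with 5 of 98 tests (5.1%) at an unadjusted p under 0.05, beside 12.2% over all genes. Nkx2-1, which drives surfactant genes, had a difference of 0.23 ± 0.13 for pregnancy after PBS (adjusted p = 0.494). Foxa1 and Nfatc3 had the smallest p for the difference of the TiO2 responses, at -0.39 ± 0.15 and 0.50 ± 0.19 (adjusted p = 0.406 and 0.405).

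Of 22 other listed markers of the type 2 cell 20 were measured. For pregnancy averaged over exposures 1 of 20 was called, near the 4.42% of all genes, and no call came in the other comparisons. Of the 140 tests of these 20 markers 21 (15.0%) had an unadjusted p under 0.05 (limma), beside 12.2% over all genes. Cldn18, a tight junction protein that type 1 cells share, fell by 0.21 on the log2 scale with pregnancy averaged over exposures (SE 0.06, adjusted p = 0.0455, limma). It read 11.91, 12.07, 11.87 and 11.73 in pregnant TiO2 and 11.84, 11.91, 11.77 and 11.83 in pregnant PBS lungs, against 12.03, 12.13, 12.12 and 12.19 in non-pregnant TiO2 and 12.13, 12.04, 11.95 and 12.01 in non-pregnant PBS lungs. The groups did not overlap after PBS and did after TiO2. This call held under only 9 of 28 other settings, although all 28 had it lower in pregnancy. Among single arrays left out, it held only without pregnant TiO2 replicate 2, pregnant PBS replicate 2 or non-pregnant PBS replicate 3.

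Chil1, a chitinase-like protein, was at 11.82 ± 0.23 in pregnant TiO2 and 11.45 ± 0.12 in pregnant PBS lungs (SD, n = 4 each), a difference of 0.37 ± 0.10 (SE, adjusted p = 0.557). Atp8a1, a phospholipid flippase, had TiO2 differences of -0.40 ± 0.15 in pregnant and 0.39 ± 0.15 in non-pregnant mice. The difference between these, -0.79 ± 0.22, was not called (unadjusted p = 0.00211, adjusted p = 0.311, limma). Muc1 and Lyz2, both type 2 markers, had no difference over 0.15 in any comparison. Lyz2 read 12.96 to 13.19 over the arrays, beside 12.98 to 13.18 for Sftpa1, a brightness at which signals were compressed.

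**Figure D5:**
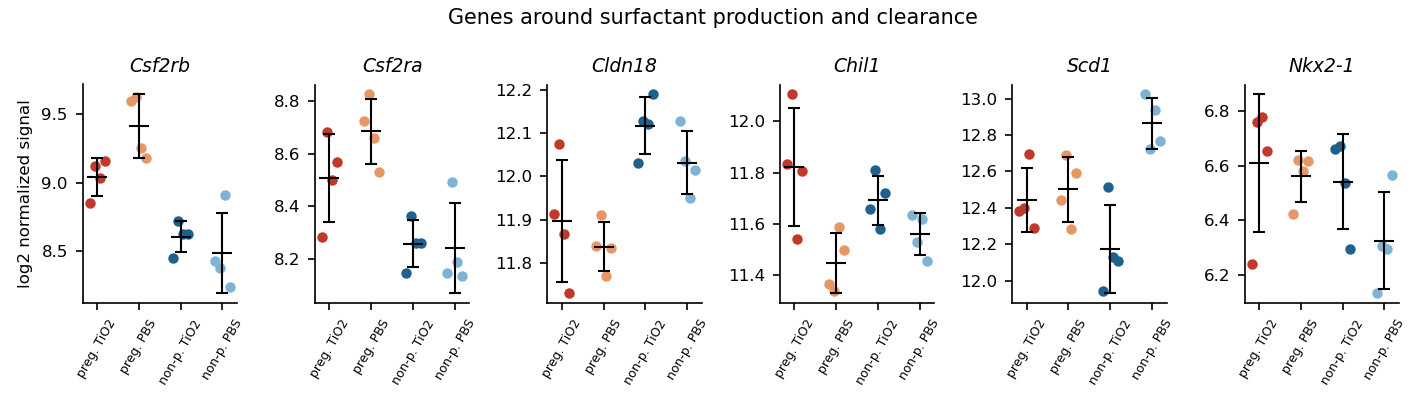
Log2 normalized signal (vertical axis) of 6 genes around surfactant in the 4 groups; points are arrays and bars the mean ± SD of 4. Csf2rb is higher in both pregnant groups (9.04 and 9.42 against 8.61 and 8.49), and Scd1 is lower in non-pregnant TiO2 (12.17) than in non-pregnant PBS lungs (12.86) without a call.

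In the neighbouring epithelium only single genes were called, but the ciliated, club and general epithelial lists, not the type 1 list, leaned higher with pregnancy. Averaged over exposures, 12 of 12 ciliated, 11 of 13 club, 10 of 12 general epithelial and 6 of 16 type 1 cell genes were higher. Their medians were 0.22, 0.17, 0.09 and -0.01, beside 0.01 over all genes. After PBS 13 of 13 club cell genes were higher, with a median of 0.26 beside 0.01. After TiO2 only 8 of 13 were higher with pregnancy, with a median of 0.04 beside 0.03 over all genes. The lists were not tested as wholes. The mean of 10 squamous epithelium markers was 4.91 in pregnant TiO2 replicate 2 and 8.89 to 10.16 on the other arrays. The part of squamous tissue in the epithelial values was not tested. All 16 type 1 cell genes were measured. After TiO2 1 of 16 was called for pregnancy, where 1.88% of all genes were. This was Igfbp2, a marker of the mature type 1 cell, higher by 0.64 ± 0.13 (adjusted p = 0.0261, limma). It read 11.17, 11.23, 10.95 and 10.93 in pregnant TiO2 lungs against 10.28, 10.39, 10.44 and 10.62 in non-pregnant TiO2 lungs, with no overlap. After PBS there was no such rise. Igfbp2 then read 10.32, 10.49, 10.90 and 10.31 in pregnant and 10.53, 10.84, 10.73 and 10.54 in non-pregnant lungs. The call ended with values as deposited and without pregnant TiO2 replicate 1 or any of non-pregnant TiO2 replicates 1, 2 and 3. Averaged over exposures, 1 of 13 club, 1 of 12 ciliated and 1 of 12 general epithelial genes were called higher with pregnancy. These were Muc5b, a mucin of the airway (0.61 ± 0.14), Cfap126, of motile cilia (0.49 ± 0.10), and Krt19, a keratin (0.38 ± 0.08). Their adjusted p-values were 0.0184, 0.0129 and 0.0130 (limma). Over all genes 4.42% were called in the same comparison. Of the type 1 cell genes, Cldn18 was called lower in it, as given above. Cfap126 was also called higher after TiO2, by 0.64. Counting the conflicting array as pregnant PBS ended the Muc5b and Krt19 calls (adjusted p = 0.124 and 0.114, limma). Values as deposited ended the Cfap126 and Krt19 calls over exposures (adjusted p = 0.139 and 0.406). Of 12 endothelial genes 0 were called in any comparison (limma). An unadjusted p under 0.05 was reached by 16 of 112 tests of type 1 cell genes (14.3%), 18 of 91 of club (19.8%), 18 of 84 of ciliated (21.4%), 11 of 84 of general epithelial (13.1%) and 9 of 84 of endothelial genes (10.7%), beside 12.2% over all genes.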

How the data were processed

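Total lung RNA was measured on 1-colour Affymetrix mouse 430 2.0 arrays. The authors deposited linear intensities, 1 for each of 45101 probe sets on each array. GCOS, MAS5 and RMA appear in the submitters' processing notes, without versions, order or roles. These deposited intensities were not scaled between arrays. For this work 64 control probe sets were left out and the rest quantile-normalized, and log2(value + 16) was taken, which understates changes of weak signals. Probe sets above the array median on at least 4 of 16 arrays were kept (23995). Genes were named through the platform annotation, brought up to date against RefSeq (GRCm38.p6, names only), and the single-symbol probe set with the highest mean stood for each of 12369 genes. Of the probe sets 34958 had 1 symbol and 932 several.

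One fit of 4 group means was made with limma 3.58.1 (lmFit, eBayes) in R 4.3.3, with 12 residual degrees of freedom, 7 contrasts and Benjamini-Hochberg adjustment within each. The number of arrays limits the precision. Slopes on brightness are least-squares fits of log2 deposited intensity on the log2 trimmed mean (2% left out at each end). The gene fit was tested on simulated data, to which changes were added without signal compression.

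The 9 genes and the gene lists were chosen with earlier results of these data known. Beyond the 9 genes, the rule named called genes of each list (up to 4 per comparison) or the 2 with the smallest p, of which examples are printed, and the 6 genes most like the members' mean. Thymus, fat and cell type lists describe tissue content. Genes given as single examples outside that rule (Lyz2, and Ctsh for pregnancy after PBS) were chosen after their values were seen. Alternatives covered normalization, pseudocount (1 and 64), filter, probe set per gene, arrays in the fit, spread estimate, array weights, each array left out, 3 arrays of unlike tissue content left out (non-pregnant PBS replicates 3 and 4, pregnant TiO2 replicate 2) and the array with conflicting labels moved. Array brightness as a covariate was chosen after seeing the data.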

Additional observations from a re-analysis of the deposited data

How the results depend on the processing

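Over 29 alternatives, 16 of them leaving out 1 array, the count of surfactant and type 2 genes called was 0 in all 200 counts. Of 1600 single differences 0 were called, 23 had an unadjusted p under 0.05 and 113 had the opposite sign. With values as deposited the median of all genes moved to 0.17 for TiO2 in non-pregnant mice, -0.25 for the difference of the TiO2 responses and 0.16 for pregnancy after PBS. Genes called over the whole array numbered 129, 233 and 547 for pregnancy after PBS, after TiO2 and over both, against 38, 21 and 102 with values as deposited, where 1 gene was called for TiO2 in pregnant mice and 1 for TiO2 over both states. Calls outside the members held under 28 of 29 settings (Csf2rb after PBS), 27 of 28 (Csf2rb, Muc5b and Cfap126 over both exposures), 26 of 28 (Csf2ra and Krt19), 24 of 29 (Igfbp2), 19 of 29 (Cfap126 after TiO2) and 9 of 28 (Cldn18). The cause was not tested. Fitting only the groups of a contrast was not run where a contrast uses all 4 groups. No paired analysis was possible because replicate numbers follow accession order and pair no arrays. Signals of the brightest genes were compressed, and 4 arrays a group limit the precision.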
